A study of Mus musculus with 41 samples.

Results

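The RNA of 10 snoRNA host genes was followed in mouse embryonic fibroblasts (MEFs): Zfas1, Gas5, Snhg1, Snhg3, Snhg5, Snhg6, Snhg8, Snhg12, Snhg15 and Snhg16. They are 10 of the 55385 genes in the RNA values and have 118 of the 142552 transcripts. They were chosen by symbol as snoRNA hosts, a class whose spliced RNAs include known targets of nonsense-mediated mRNA decay (NMD). The levels of these genes in the same 11 libraries were already known when they were chosen. Their levels and fold changes are therefore a description, given without a test. In the libraries labelled Upf2 cKO, 9 of the 10 host genes were between 2.41- and 18.6-fold higher than in control cells, while Snhg3 was lower.

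RNA was sequenced from 3 control, 3 Hbs1l cKO, 2 Pelo cKO and 3 Upf2 cKO libraries. All cells carried CAG-Cre ER, a tamoxifen-inducible Cre under a ubiquitous promoter, on a C57BL/6 background, and all, controls included, were treated with tamoxifen. The control genotype was CAG-Cre ER alone, and the mutant genotypes were CAG-Cre ER with Hbs1l cKO, Pelo cKO or Upf2 cKO. Primary MEFs were isolated at embryonic day 13, received 1 µM 4-hydroxytamoxifen for 48 hr and were collected 48 hr after seeding, at passage 1. Each replicate came from 1 embryo, and cells of all genotypes were homozygous for the B6J allele of the tRNA gene n-Tr20, which impairs its function. A further Pelo library was left out by the submitters as a biological outlier, and all 11 libraries carry the same batch label, so that each comparison lies within that batch. Ribosome footprints came from 3 mutant and 3 control libraries each of MEFs of the same genotypes (a control set for each mutant), of whole C57BL/6NJ embryos at embryonic day 8.5 (Hbs1l -/- or wildtype) and of C57BL/6J cerebella at postnatal day 14. The cerebella carried Atoh-Cre, a Cre transgene under the Atoh1 promoter, which is active in granule cell precursors, with Hbs1l cKO or with Hbs1l +/+.

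snoRNAs are small nucleolar RNAs that guide ribose methylation (box C/D class) or pseudouridylation (box H/ACA class) of ribosomal RNA, and a few help to cleave its precursor. In mammals most are cut out of the introns of longer host transcripts, while the host's exons are joined into an RNA that, for the Snhg genes, Gas5 and Zfas1, encodes no known conserved protein. Such RNAs reach the cytoplasm, where ribosomes can translate short reading frames near their start. NMD degrades RNAs in which translation stops well before the last exon junction, and UPF2 is the protein that joins UPF1 to UPF3 at the exon junction complex. HBS1L and PELO act in another pathway: they release ribosomes that stall on an RNA.

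The hosts are short genes that hold between 1 and 10 annotated snoRNA genes within their span, on the same strand. In Gencode M21 on GRCm38, Zfas1 (ENSMUSG00000074578.14) lies at chr2:167062934-167065862 on the plus strand and holds 3 snoRNA genes, Snord12 among them. Gas5 (ENSMUSG00000053332.13), named for its rise in growth-arrested cells, lies at chr1:161034422-161038539 on the plus strand and holds 10. Snhg1 (ENSMUSG00000108414.1) at chr19:8723475-8726443 on the plus strand holds 8, Snord22 among them. Snhg3 (ENSMUSG00000085241.7) at chr4:132348014-132353686 on the minus strand holds Snora73a and Snora73b, H/ACA RNAs that act in cleavage of the ribosomal RNA precursor. Snhg5 (ENSMUSG00000097195.10) at chr9:88521050-88522929 on the minus strand holds Snord50a and Snord50b. Snhg6 (ENSMUSG00000098234.7) at chr1:9941959-9944118 on the minus strand holds Snord87, and Snhg8 (ENSMUSG00000104960.1) at chr3:123507552-123508404 on the minus strand holds Snora24. Snhg12 (ENSMUSG00000086290.9) at chr4:132308623-132311024 on the plus strand holds 5, Snora44 and Snora61 among them. Snhg15 (ENSMUSG00000085156.8) at chr11:6525591-6528760 on the minus strand holds Snora9, and Snhg16 (ENSMUSG00000020812.18) at chr11:116671660-116675799 on the plus strand holds Snord1a, Snord1b and Snord1c.

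NMD is known to read a stop codon ahead of exon junctions. This property was looked for in the reading frame that begins at the first ATG of a host's most abundant transcript. Most abundant here means the highest mean TPM over all 11 libraries, so the libraries labelled Upf2 cKO took part in the choice. In controls alone, Snhg16-204 averaged 1.94 TPM, below Snhg16-211 at 2.21 TPM. Frames of 5 hosts are printed here 5′ to 3′ from Gencode M21 transcripts (GRCm38), in lower case with the start and stop codons in capitals. They were picked to show 3 of the hosts with the largest fold changes or levels, the shortest frame, and the frame of the host that was not higher.
Zfas1-205: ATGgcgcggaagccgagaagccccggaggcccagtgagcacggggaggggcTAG
Gas5-210: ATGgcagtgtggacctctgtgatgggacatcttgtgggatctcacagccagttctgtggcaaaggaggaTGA
Snhg16-204: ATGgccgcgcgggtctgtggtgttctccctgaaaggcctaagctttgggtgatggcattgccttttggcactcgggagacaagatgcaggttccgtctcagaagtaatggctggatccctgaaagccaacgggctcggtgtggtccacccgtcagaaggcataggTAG
Snhg8-201: ATGTAG
Snhg3-204: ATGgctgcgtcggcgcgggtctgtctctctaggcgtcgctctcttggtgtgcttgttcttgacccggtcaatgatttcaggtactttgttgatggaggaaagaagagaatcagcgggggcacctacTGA

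The frame of Zfas1-205 has 17 codons before its stop and is followed by 613 bases with 4 exon junctions that lie more than 50 bases after the stop. That of Gas5-210 has 23 codons and 6 such junctions, and that of Snhg16-204 has 4. In Snhg8-201 the first ATG is followed at once by a stop, with 2 junctions further on. Snhg3-204, in contrast, has 279 bases and 0 such junctions after its stop. Counted the same way, the leading transcripts of the other hosts had 5 junctions (Snhg1-211), 1 (Snhg6-203) and 3 (Snhg12-206). For Snhg5-202, its gene's second most abundant transcript, and for Snhg15-204, M21 holds a version of another length than the quantified one, with 2 and 3 junctions. Whether ribosomes use these frames was not measured here: none of the 10 hosts has a row in the footprint counts, which cover reads on coding sequences.

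In control cells the 10 hosts lay between 8.64 and 238 TPM, a unit of abundance corrected for transcript length and library size. Gas5 was the most abundant at 238 ± 41.9 TPM (SD, n = 3), followed by Snhg6 at 149 ± 7.26. Snhg8 (81.7 ± 8.42), Snhg1 (72.4 ± 13.3), Zfas1 (54.2 ± 3.89) and Snhg3 (53.0 ± 2.80) came next, and each of these overlapped its neighbour in the order. Snhg12 (45.5 ± 4.27), Snhg15 (22.9 ± 1.69), Snhg5 (13.9 ± 2.90) and Snhg16 (8.64 ± 0.784) were lower, each apart from the next. In the libraries labelled Upf2 cKO the order was another: Zfas1 (859 ± 89.2), Snhg1 (801 ± 195), Gas5 (773 ± 255) and Snhg12 (629 ± 72.6) led with overlapping libraries, and Snhg3 was the lowest of the 10. Together the hosts took between 0.0661% and 0.0820% of all TPM in control libraries, and between 0.368% and 0.519% in those labelled Upf2 cKO. The shares were 0.0555% to 0.0675% in Hbs1l and 0.0476% to 0.0512% in Pelo cKO libraries.

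**Figure D1:**
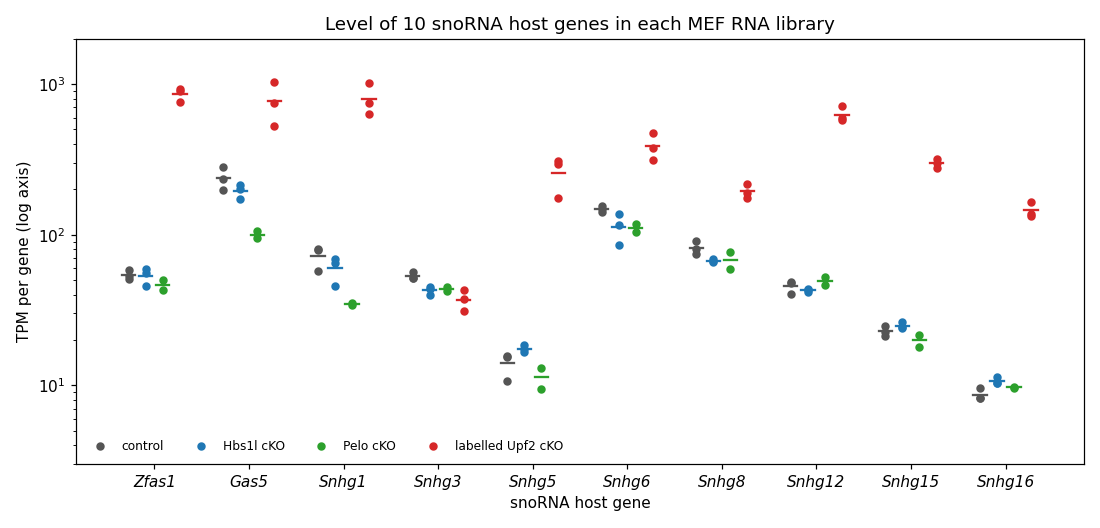
Level of each of the 10 host genes (TPM, log axis) in the 11 MEF RNA libraries. Points are libraries and short lines are group means; in 9 of the 10 genes the 3 libraries labelled Upf2 cKO (red) lie above all controls, and in Snhg3 they lie below them.

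The libraries held between 22713643 and 86425762 estimated counts, and the 10 hosts had at least 134 estimated counts each in every library. In 10 of the 40 pairs of a host and a group, the Poisson counting error at the lowest count was larger than the SD between libraries, none of them in the libraries labelled Upf2 cKO. Hbs1l RNA was 5.29 to 6.24 TPM in the Hbs1l cKO libraries against 29.0 to 38.3 in controls, and Pelo RNA was 0.435 and 0.0698 TPM in the Pelo cKO libraries against 14.8 to 17.5. Upf2 RNA went against its label: it was 20.6, 14.4 and 8.61 TPM in the libraries labelled Upf2 cKO and 3.82, 5.63 and 4.51 in controls (log2 fold change 1.33 ± 0.24 SE; edgeR quasi-likelihood test, adjusted p = 0.00331). Counts over the whole gene cannot show whether the floxed exons were removed, and directions below refer to the libraries as labelled. Summed fibroblast markers lay at 4650 to 5946 TPM in controls, 4044 to 4784 in the libraries labelled Upf2 cKO, 5790 to 7138 in Hbs1l and 6740 to 7377 in Pelo cKO libraries. Markers of other cell types were present at lower sums. Skeletal muscle markers summed to 83.1 to 96.9 TPM in controls, 35.7 to 60.1 in libraries labelled Upf2 cKO, 11.8 to 23.1 in Hbs1l and 101 to 115 in Pelo cKO libraries. Epithelial markers were at 31.7 to 40.3, 21.3 to 43.0, 14.5 to 24 and 54.0 to 63.6 TPM in the same order, neural ones at 45.9 to 71.0, 36.8 to 43.4, 38.1 to 39.8 and 27.7 to 31.7, and chondrocyte ones at 36.9 to 54.0, 29.6 to 46.7, 20.6 to 40.0 and 55.7 to 56.5. Macrophage markers were at 8.03 to 13.8, 8.23 to 11.8, 15.4 to 24.4 and 12.9 to 19.6 TPM, and endothelial ones at 6.71 to 8.60, 4.22 to 6.00, 4.83 to 6.27 and 7.88 to 9.84. Of the 23 markers in these 6 lists, 9 were below 1 TPM in every library: Ptprc, Cdh5, Tie1, Epcam, Cdh1, Sox2, Elavl3, Myod1 and Myh3. In these bulk samples, fewer cells of a type and less RNA per cell cannot be told apart, and the part of other cells in the levels of the hosts was not tested.

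The comparison with the libraries labelled Upf2 cKO asks how the hosts' RNA stands in cells meant to lack an NMD factor. Zfas1, which is transcribed head to head with Znfx1, was at 50.7, 53.4 and 58.4 TPM in controls and at 923, 896 and 757 TPM in the libraries labelled Upf2 cKO. On fitted counts this was the largest fold change of the 10, with a log2 fold change of 4.21 ± 0.12 (SE), and ranked 16th from the top among 15983 genes fitted. Snhg5 was at 10.6, 15.7 and 15.5 TPM in controls and at 308, 293 and 175 TPM in the labelled libraries (log2 fold change 4.01 ± 0.17). Snhg16 was at 8.16, 8.22 and 9.55 TPM against 132, 137 and 165 (3.92 ± 0.17). On log2(TPM + 0.1) the differences were 4.18 for Snhg5, 4.05 for Snhg16 and 3.98 for Zfas1, so that the order of these hosts depends on the scale. Snhg5 and Snhg16, the least abundant hosts in control cells, were thus among the 3 with the largest fold changes.

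Snhg12 and Snhg15 stood between 9.36- and 13-fold above control, with little spread. Snhg12 was at 40.6, 48.2 and 47.7 TPM in controls and at 712, 582 and 592 TPM in the labelled libraries, a log2 fold change of 3.70 ± 0.13. Snhg15 was at 21.3, 22.7 and 24.7 TPM against 319, 279 and 299 (3.23 ± 0.13). Snhg1 was at 57.1, 80.7 and 79.5 TPM in controls and at 1016, 751 and 636 TPM in the labelled libraries (3.34 ± 0.16), and its lowest labelled library was several times its highest control.

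The 3 hosts with the highest level in control cells had the smallest fold changes among the 9 that were higher. Gas5 was at 198, 235 and 282 TPM in controls and at 1038, 751 and 530 TPM in the libraries labelled Upf2 cKO (log2 fold change 1.65 ± 0.18). Snhg6 was at 149, 141 and 156 TPM against 475, 376 and 315 (1.38 ± 0.14). Snhg8 was at 73.9, 80.5 and 90.6 TPM against 219, 190 and 176 (1.27 ± 0.12). Relative to its mean, Gas5 (SD 32.9% of the mean TPM) varied most between the labelled libraries, followed by Snhg5 (28.2%) and Snhg1 (24.3%). In 9 of the 10 hosts the first of these libraries was the highest, the exception being Snhg16. The same library had the highest Upf2 RNA.

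Snhg3 behaved otherwise. It was at 51.3, 51.5 and 56.2 TPM in controls and at 42.6, 37.1 and 31.1 TPM in the libraries labelled Upf2 cKO, with no overlap and a log2 fold change of -0.54 ± 0.14. Its exons share 135 bases with Rcc1, a neighbouring gene on the same strand, and 705 with Gm17300 on the opposite strand. Rcc1, which encodes the nucleotide exchange factor for Ran, rose to between 41.7 and 59.1 TPM from 30.1 to 33.6 (log2 fold change 0.62 ± 0.12; edgeR adjusted p = 0.00644), and Gm17300 did not pass the test (-0.01 ± 0.18, adjusted p = 0.971). Reads on the shared bases were divided between these genes by the quantification, and their part in the value for Snhg3 was not tested.

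Across the 10 hosts the median log2 fold change in the libraries labelled Upf2 cKO was 3.28, while the median over all 15983 genes was -0.02 and their 99th percentile 2.07. All 3 labelled libraries lay above all 3 controls in 9 hosts and below them in 1, on normalised counts as on TPM. Of all genes, 21.9% lay above in this way and 18.0% below, and since the hosts were chosen on these values no weight is placed on that contrast. By the edgeR test at an adjusted p of 0.05, 13.2% of all genes were higher and 6.76% lower.

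**Figure D2:**
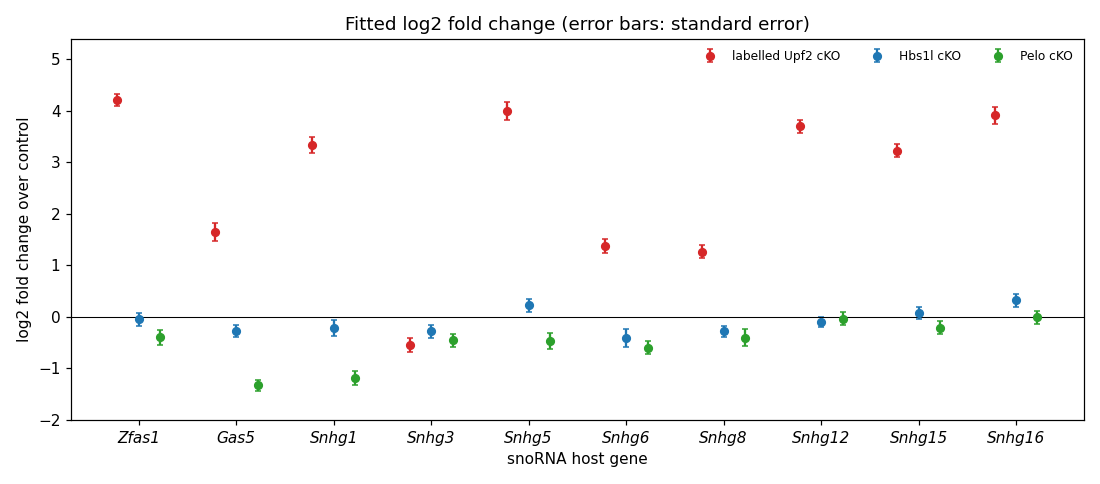
Fitted log2 fold change of each host gene over control in the libraries labelled Upf2 cKO (red), Hbs1l cKO (blue) and Pelo cKO (green), with standard errors. The red points lie between 1.27 and 4.21 except for Snhg3 at -0.54, and the blue points lie between -0.41 and 0.32.

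In Hbs1l cKO cells the hosts lay near their control level. The comparison shares its control libraries with the others. The median log2 fold change of the 10 was -0.15 (all 15318 genes fitted: -0.01), and the values ran from -0.41 to 0.32. Snhg6 was the lowest, at 85.8, 116 and 137 TPM against 149, 141 and 156 in controls (-0.41 ± 0.17). Its log2 fold change was -0.25 without the first Hbs1l library and -0.61 without the third. Snhg16 was the highest, at 10.4, 10.4 and 11.3 TPM against 8.16, 8.22 and 9.55 (0.32 ± 0.12). Zfas1 was at 45.8, 58.8 and 55.4 TPM, on both sides of its controls (50.7 to 58.4), and its log2 fold change of -0.04 ± 0.13 took the opposite sign without the first Hbs1l library. On normalised counts 2 hosts (Snhg5 and Snhg16) lay above all controls and 4 below them, beside 23.0% and 21.3% of all genes. On TPM, Gas5 and Snhg12 overlapped with controls and Snhg6 did not. By the edgeR test, 12.7% of all genes were higher and 10.4% lower.

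In Pelo cKO cells Gas5 and Snhg1 stood lowest. Gas5 was at 105 and 95.1 TPM in the 2 Pelo libraries, against 198 to 282 in controls, with a log2 fold change of -1.33 ± 0.11. Snhg1 was at 34.3 and 35.1 TPM, against 57.1 to 80.7, with a log2 fold change of -1.18 ± 0.14. Snhg6 was at 105 and 117 TPM (-0.60 ± 0.12), Snhg3 at 42.3 and 45.2 TPM (-0.46 ± 0.13) and Zfas1 at 42.8 and 50.1 TPM (-0.40 ± 0.14), each below all 3 controls. The value for Zfas1 was -0.19 without the first Pelo library and -0.63 without the second. Snhg5 (13.1 and 9.47 TPM, -0.47 ± 0.15) and Snhg8 (59.0 and 76.5 TPM, -0.40 ± 0.17) were below all controls on normalised counts but overlapped with them on TPM. For Snhg8 the log2 fold change was -0.14 without the first Pelo library and -0.71 without the second.

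Snhg15, at 18.0 and 21.7 TPM, overlapped with its controls in the Pelo comparison (-0.21 ± 0.13). That value was -0.05 without the first Pelo library and -0.38 without the second. Snhg12 (46.6 and 52.5 TPM) and Snhg16 (9.57 and 9.75 TPM) had fitted log2 fold changes of -0.04 ± 0.13 and -0.01 ± 0.12, and both were higher than control on the scale of log2(TPM + 0.1). With 7 of the 10 hosts below all controls on normalised counts and 0 above, the shares of all genes were 31.0% and 31.3%. Only 2 libraries had to lie apart from 3 in this comparison. On TPM 5 hosts lay below all controls and 1, Snhg16, above them (8.16 to 9.55 TPM in controls). The edgeR test called 15.5% of all genes higher and 16.6% lower. The median over the hosts was -0.43, and over all 14705 genes fitted it was -0.01.

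Quantified by transcript, 31 transcripts of lncRNA type and 18 of retained_intron type from the 10 hosts had a mean of at least 1 TPM. An lncRNA-type transcript here is a spliced host RNA, while a retained_intron transcript keeps intron sequence. Some of them passed this limit only through the libraries labelled Upf2 cKO, so for that comparison counts are given for transcripts of at least 1 TPM over the Hbs1l and Pelo cKO libraries, a filter chosen after the values were seen, in a fit with no filter on low counts. In the libraries labelled Upf2 cKO, 16 of 28 lncRNA-type and 2 of 17 retained_intron transcripts of the hosts then had a log2 fold change over 1, beside 8.20% of all transcripts. The medians were 1.31 and 0.14, and that of all 23399 transcripts was -0.04. In Hbs1l cKO cells, of the transcripts with at least 1 TPM over all 11 libraries that passed the filter on low counts, 0 of 29 and 0 of 18 were over 1 and 0 of each were under -1, beside 3.55% and 3.85% of all transcripts. In Pelo cKO cells 0 of 28 lncRNA-type and 0 of 16 retained_intron transcripts were over 1, beside 3.22% of all, and 11 and 5 were under -1, beside 8.74%. The limit was also set on the libraries of the other mutants instead, in a fit with no filter on low counts. Of the lncRNA-type transcripts, 2 of 33 were then over 1 in Hbs1l and 2 of 35 in Pelo cKO cells (4.13% and 3.73% of all). That setting gives more weight to the libraries labelled Upf2 cKO, so it can let in more transcripts that are high there and low elsewhere.

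Both types can be set side by side within 5 hosts. For Snhg1, transcripts of lncRNA type summed to 49.9, 71.8 and 68.9 TPM in controls and to 1008, 741 and 627 TPM in the libraries labelled Upf2 cKO. Its retained_intron transcripts summed to 7.21, 8.90 and 10.5 TPM in controls and to 7.98, 10.03 and 8.58 TPM in the labelled libraries, so that one form was far higher and the other overlapped. For Gas5 the lncRNA type was at 178, 204 and 252 TPM in controls and at 1006, 713 and 507 TPM in the labelled libraries. Its retained_intron type was at 20.5, 30.7 and 30.2 TPM against 31.7, 38.0 and 23.5, again overlapping. The single retained_intron transcript of Snhg8 also overlapped, at 1.08 to 1.75 TPM in controls and 1.44 to 1.84 in labelled libraries.

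Zfas1 and Snhg5 differed from this pattern in part. The retained_intron type of Zfas1 was at 11.7, 16.4 and 18.3 TPM in controls and at 58.3, 35.7 and 23.3 TPM in libraries labelled Upf2 cKO, most of it in Zfas1-203 (12.9 to 49.9 TPM). Zfas1-201 and Zfas1-204 of the same type had log2 fold changes of 0.22 ± 0.34 and 0.19 ± 0.41. In Snhg5 the retained_intron type went from 4.11, 6.06 and 4.29 TPM to 25.5, 24.3 and 16.8, led by Snhg5-207 (log2 fold change 3.13 ± 0.38). The share of the retained_intron type in the 2 types' sum was 11.02% to 13.3% for Snhg1 in controls and 0.786% to 1.35% in labelled libraries, and 23.0% to 31.4% against 3.07% to 6.31% for Zfas1. How far the quantification moved reads between overlapping transcripts of a gene was not tested.

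**Figure D3:**
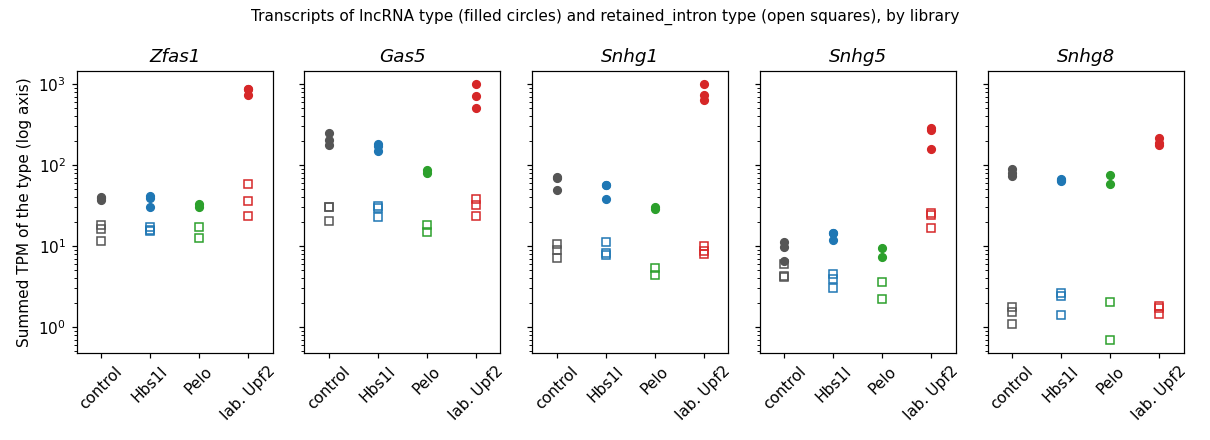
Summed TPM (log axis) of lncRNA-type (filled circles) and retained_intron-type (open squares) transcripts of the 5 hosts that have both, 1 symbol a library. The lncRNA type was higher in all libraries labelled Upf2 cKO in each of the 5, while the retained_intron type overlapped with controls in Gas5, Snhg1 and Snhg8.

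Within a host the fold changes also differed between spliced transcripts. Snhg16-204 went from 1.55, 1.99 and 2.28 TPM in controls to 86.8, 89.0 and 102 TPM in libraries labelled Upf2 cKO (log2 fold change 5.54 ± 0.20), and its share of the gene from 19.0% to 24.2% to between 61.9% and 65.5%. Snhg16-201 of the same gene had a log2 fold change of -0.26 ± 0.36. Zfas1-205 had one of 4.59 ± 0.13, and its share of Zfas1 was 90.7% to 94.1% in labelled libraries against 56.2% to 64.5% in controls. Snhg15-204 had one of 4.46 ± 0.13, while Snhg15-202 and Snhg15-203 had 0.03 ± 0.20 and 0.27 ± 0.30. Snhg12-207 was at 2.27, 2.53 and 2.33 TPM in controls and is listed at 0 in all 3 labelled libraries, where Snhg12-206 made up at least 98.8% of the gene.

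Set against the junctions after the first frame, the 2 fitted lncRNA-type transcripts with 0 such junctions, Snhg3-204 and Snhg3-203, had log2 fold changes of -0.65 ± 0.18 and -0.13 ± 0.49. Of the hosts' lncRNA-type transcripts with 1 or more junctions, 16 had at least 1 TPM over the Hbs1l and Pelo cKO libraries, with a median of 1.31, and 10 of them were over 1. Downstream junctions were not accompanied by a higher level in every case: Snhg1-207, with 7, had a log2 fold change of -0.66 ± 0.29, and Snhg3-202, with 1, had one of -0.73 ± 0.33. Of the 17 retained_intron transcripts that passed the same filter, 14 had a frame in M21, and 0 of these were over 1, although most had junctions after their first stop as well. The 3 without a frame include both that were over 1, Snhg5-207 and Zfas1-203, so that the low values hold for a set that leaves these out. Of the 28 lncRNA-type transcripts 10 had no frame, 6 of them over 1. These transcripts belong to 10 genes, share exons and are not independent. Among lncRNA-type transcripts of other genes that passed the same filter, 34 of 191 (17.8%) with 1 or more junctions and 10 of 178 (5.62%) with 0 had a log2 fold change over 1, with medians of 0.14 and -0.06. With the filter set on the libraries of the mutants outside each comparison, those shares were 4.05% and 3.92% in Hbs1l cKO cells, and 2.2% and 6.95% in Pelo cKO cells.

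**Figure D4:**
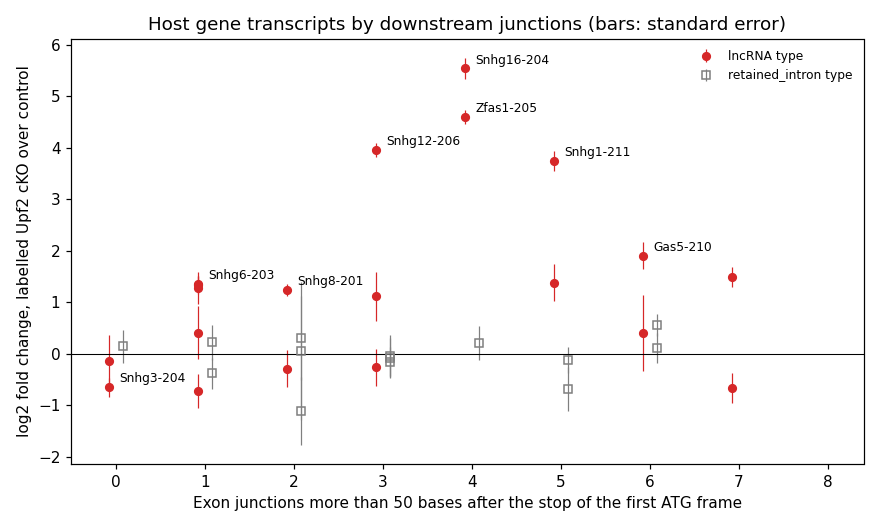
Log2 fold change, with standard errors, of host transcripts in the libraries labelled Upf2 cKO. The horizontal axis is the number of exon junctions more than 50 bases after the stop of the first ATG frame. Drawn are transcripts with the same version in M21 and a mean of at least 1 TPM over all 11 libraries. That filter, unlike the one in the text, includes the libraries labelled Upf2 cKO. Some points, Gas5-203 among them, are below 1 TPM over the Hbs1l and Pelo cKO libraries. Leading transcripts are named; Snhg12-207, listed at 0 in the labelled libraries, is not drawn, and the red points at 0 junctions are those of Snhg3.

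The snoRNAs themselves were hardly present in these poly(A)-selected libraries. Of 36 snoRNA transcripts held by the hosts, 24 were at 0 TPM in every library and 3 reached 1 TPM in every library. Gm23201, in Zfas1, was at 23.5 to 32.0 TPM in controls and 25.3 to 35.9 TPM in libraries labelled Upf2 cKO. Snora73b, in Snhg3, was at 10.9 to 22.3 TPM in controls and 14.1 to 22.8 TPM in labelled libraries. Snora73a was at 2.32 to 5.65 and 4.31 to 5.79 TPM. Each of these overlapped between the groups, and levels of mature snoRNAs cannot be read from this kind of library.

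Host genes that are not among the 10 are given with the edgeR test, though their lists, too, were drawn up with earlier results of these data known. Of 12 other noncoding snoRNA host genes with enough counts, 4 rose (33.3%, beside 13.2% of all genes) and 0 fell (beside 6.76%) in libraries labelled Upf2 cKO by the edgeR test. Snhg17 rose from 10.3 ± 1.03 to 95.5 ± 7.57 TPM (SD, n = 3; log2 fold change 2.69 ± 0.13, adjusted p = 5.42e-07). Epb41l4aos rose from 27.4 ± 2.90 to 106 ± 21 TPM (2.01 ± 0.17, adjusted p = 2.66e-05), and 1 of 2 genes named Snhg4 (ENSMUSG00000117694.1) rose from 1.31 ± 0.235 to 4.51 ± 2.08 TPM (1.36 ± 0.35, adjusted p = 0.0210), a call lost in the joint fit of all 11 libraries and without the second control or the second labelled library (highest adjusted p = 0.0899). Meg3 was the fourth. Rian, an imprinted host of many C/D snoRNAs, had a log2 fold change of -0.18 ± 0.09 (adjusted p = 0.212), and the median of the 12 was 0.11.

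Of the 12, edgeR called 0 in Hbs1l cKO cells, beside 12.7% of all genes higher and 10.4% lower (at an unadjusted p of 0.05, 1 higher and 2 lower; DESeq2, 0 higher and 1 lower). In Pelo cKO cells 2 rose and 2 fell (16.7% each), shares close to the 15.5% and 16.6% of all genes. Those that rose were Snhg17 (0.45 ± 0.12, adjusted p = 0.0278) and Meg3 (0.41 ± 0.12, adjusted p = 0.0391), and those that fell the other Snhg4 gene (-0.54 ± 0.14, adjusted p = 0.0236) and Snhg18 (-0.42 ± 0.12, adjusted p = 0.0299). All 4 calls were lost without either Pelo library, with adjusted p up to 0.299.

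**Figure D5:**
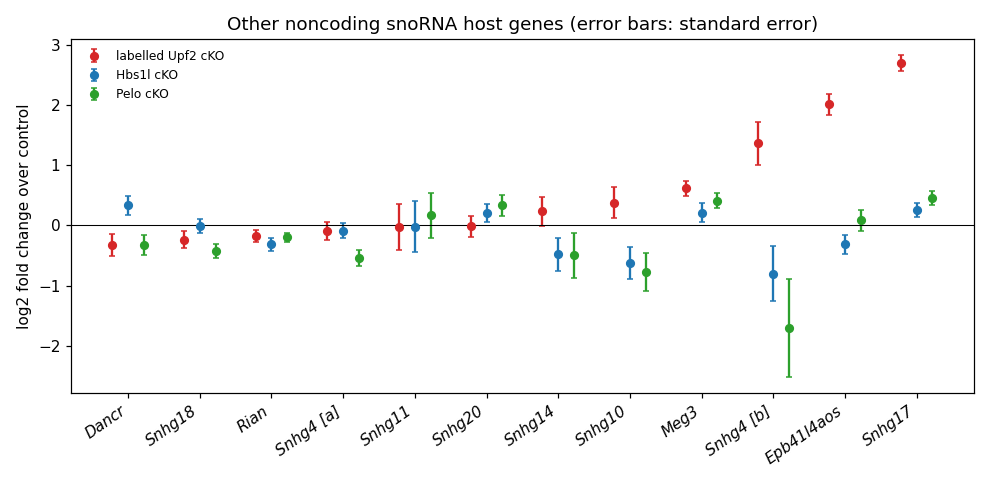
Log2 fold change with standard error of 12 other noncoding snoRNA host genes in the libraries labelled Upf2 cKO (red), Hbs1l cKO (blue) and Pelo cKO (green) cells. Snhg4 [a] is ENSMUSG00000117869.1 and [b] is ENSMUSG00000117694.1; Snhg17 (2.69) and Epb41l4aos (2.01) are the highest red points.

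Hosts were also taken from the annotation, as genes whose span holds a snoRNA gene on the same strand. Those not annotated as protein-coding overlap the list of other noncoding hosts above, with Snhg17 in both, so their rises are partly the same genes. Of the 21 tested that are not annotated as protein-coding and not among the 10, 8 rose (38.1%, beside 13.2% of all genes) and 2 fell (9.52%, beside 6.76%) in libraries labelled Upf2 cKO, with a median log2 fold change of 0.00. The largest rises were those of 2410006H16Rik (3.07 ± 0.15, edgeR adjusted p = 5.42e-07), Snhg17 and 1110038B12Rik (2.2 ± 0.12, adjusted p = 1.21e-06). Rab26os (-0.80 ± 0.21, adjusted p = 0.0246) and Cct6a (-0.53 ± 0.12, adjusted p = 0.0137), fell. M21 gives the gene Cct6a the type processed_transcript, so it stands in this list although it encodes a chaperonin subunit. Both lost the call without the third control library, and Rab26os also without other single libraries (highest adjusted p = 0.0955 for Rab26os and 0.0594 for Cct6a). DESeq2 called 6 of the list higher and 2 lower in these libraries. In Hbs1l cKO cells 1 of 19 rose (5.26%, beside 12.7% of all genes) and 0 fell (beside 10.4%; DESeq2, 1 higher and 2 lower). In Pelo cKO cells 2 of 18 rose (11.1%, beside 15.5%) and 3 fell (16.7%, beside 16.6%; DESeq2, 2 higher and 2 lower).

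Protein-coding hosts were compared as well. Of 227 tested from the annotation, 26 rose (11.5%) and 17 fell (7.49%) in libraries labelled Upf2 cKO, beside 13.2% and 6.76% of all genes, with a median of -0.15. DESeq2 called 26 higher and 31 lower, beside 2156 and 1487 of all genes (edgeR, 2113 and 1081). In Hbs1l cKO cells 25 of 225 rose (11.1%, beside 12.7% of all genes) and 15 fell (6.67%, beside 10.4%). Of 222 tested in Pelo cKO cells, 37 rose (16.7%, beside 15.5%) and 65 fell (29.3%, beside 16.6%). Of the 227 in libraries labelled Upf2 cKO, Alkbh1 (1.83 ± 0.12, edgeR adjusted p = 4.52e-06) and 2410002F23Rik (1.68 ± 0.12, adjusted p = 1.20e-05) rose most after Rpl12. Etl4 (-1.32 ± 0.20, adjusted p = 0.00131) and Itgbl1 (-0.99 ± 0.27, adjusted p = 0.0282; lost with DESeq2 and without several single libraries, up to 0.134) fell furthest in the same libraries labelled Upf2 cKO. In a shorter list of 32, most of them ribosomal protein and translation factor genes, 3 rose and 3 fell (9.38% each, beside 13.2% and 6.76% of all genes) in libraries labelled Upf2 cKO, with a median of -0.22, while DESeq2 called 3 higher and 9 lower. Rpl12, a ribosomal protein gene, rose from 47.5 ± 1.53 to 355 ± 26.4 TPM (2.42 ± 0.14, edgeR adjusted p = 1.95e-06). Cwf19l1 (0.85 ± 0.13, adjusted p = 0.00116) and Eif4a2, an RNA helicase of translation initiation (0.68 ± 0.19, adjusted p = 0.0291), were the others. Rpl23 (-0.53 ± 0.17, adjusted p = 0.0495) and Rpl30 (-0.48 ± 0.14, adjusted p = 0.0335) fell furthest. The calls for Eif4a2, Rpl23 and Rpl30 were lost without the second or the third control library or the second labelled library, among others, with adjusted p up to 0.144. Of the 32, 6 rose (18.8%, beside 12.7% of all genes) and 1 fell (3.12%, beside 10.4%) in Hbs1l cKO cells (median 0.10). Nop56, a core C/D snoRNP protein, had a log2 fold change of 0.48 ± 0.09 there (adjusted p = 0.00714), and those of Dkc1 (0.60 ± 0.13), Rps2 (0.49 ± 0.13, adjusted p = 0.0239) and Eif4a2 (-0.72 ± 0.18, adjusted p = 0.0202) lost their call without the second control library, among others, with adjusted p up to 0.0940. Of the same 32, 1 rose (3.12%, beside 15.5%) and 15 fell (46.9%, beside 16.6% of all genes) in Pelo cKO cells (median -0.34). Among the latter Eif4a2 (-1.15 ± 0.09, adjusted p = 7.18e-04) and Ncl, which encodes nucleolin (-1.14 ± 0.12, adjusted p = 0.00147), fell furthest.

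Of 81 ribosomal protein genes tested, 2 rose (2.47%, beside 13.2% of all genes) and 23 fell (28.4%, beside 6.76%) in libraries labelled Upf2 cKO (median -0.29; DESeq2, 2 higher and 32 lower). Rpl29 fell from 1175 ± 139 to 144 ± 12.3 TPM (-3.0 ± 0.12, edgeR adjusted p = 1.36e-07), and Rpl7 had a log2 fold change of -0.88 ± 0.18 (adjusted p = 0.00711). Rpl12 and Rpl10a (0.40 ± 0.12, adjusted p = 0.0352) rose, the latter not without any 1 of the control libraries (adjusted p up to 0.126). In Pelo cKO cells 54 fell (66.7%, beside 16.6% of all genes) and 0 rose (beside 15.5%; median -0.40; at an unadjusted p of 0.05, 66 lower and 0 higher; DESeq2, 60 lower and 0 higher), led by Rpl7 (-1.27 ± 0.11, adjusted p = 7.86e-04) and Rps24 (-1.19 ± 0.15, adjusted p = 0.00240). In Hbs1l cKO cells 3 rose (3.7%, beside 12.7% of all genes) and 1, Rpl7, fell (1.23%, beside 10.4%; -0.54 ± 0.12, adjusted p = 0.0125; median of the list 0.08; DESeq2, 7 higher and 2 lower), and the rises, of Rps14, Rps2 and Rpl18, were all lost without the second control library (up to 0.142). Ribosomal protein genes have many near-identical pseudogenes, so that their estimated counts are uncertain.

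RNA of genes for the proteins that package snoRNAs was compared too. Of 17 such snoRNP genes, edgeR called 0 in the libraries labelled Upf2 cKO, beside 13.2% of all genes higher and 6.76% lower (at an unadjusted p of 0.05, 2 higher and 0 lower; DESeq2, 0), with a median of 0.08. Of the 17, 9 rose (52.9%, beside 12.7% of all genes) and 0 fell (beside 10.4%) in Hbs1l cKO cells (median 0.36), led by Dkc1, the pseudouridine synthase (0.60 ± 0.13, adjusted p = 0.0131; lost without the second control or second Hbs1l library, up to 0.0634), Gar1 (0.58 ± 0.12, adjusted p = 0.00955) and Ruvbl2 (0.57 ± 0.10, adjusted p = 0.00510). In Pelo cKO cells 1 rose (5.88%, beside 15.5% of all genes) and 5 fell (29.4%, beside 16.6%; median -0.11). Nop58, a core C/D protein, fell from 130 ± 19.9 to 59.3 ± 18.1 TPM (-1.22 ± 0.12, adjusted p = 0.00101), and Znhit6, an assembly factor, had a log2 fold change of -0.69 ± 0.11 (adjusted p = 0.00432; 0.0588 without the second Pelo library). Nop56, the partner of Nop58 and itself a snoRNA host, had one of 0.27 ± 0.08 (adjusted p = 0.0412, lost without either Pelo library, up to 0.236).

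Genes of NMD factors, some of whose mRNAs are known NMD targets, were the last list. Of 6 such genes other than Upf2, 5 rose (83.3%, beside 13.2% of all genes) and 0 fell (beside 6.76%) in libraries labelled Upf2 cKO (median 1.08). Smg5 rose from 33.9 ± 2.81 to 94.4 ± 5.75 TPM (1.47 ± 0.11, edgeR adjusted p = 1.20e-05), Smg6 had a log2 fold change of 1.24 ± 0.11 (adjusted p = 4.63e-05) and Smg1, the kinase that phosphorylates UPF1, one of 1.20 ± 0.19 (adjusted p = 0.00170). Upf3b was at 0.47 ± 0.21 (adjusted p = 0.142). In Hbs1l cKO cells edgeR called 0 of 6, beside 12.7% of all genes higher and 10.4% lower (at an unadjusted p of 0.05, 2 higher and 1 lower; DESeq2, 0). In Pelo cKO cells 2 rose (33.3%, beside 15.5% of all genes) and 1 fell (16.7%, beside 16.6%): Upf1 rose (0.57 ± 0.08, adjusted p = 0.00306), as did Smg6 (0.34 ± 0.10, adjusted p = 0.0368; lost without any 1 library, up to 0.263), and Upf3b fell (-1.52 ± 0.15, adjusted p = 0.00103).

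Some hosts overlap other genes, whose reads the quantification may share with them. Znfx1, opposite Zfas1 over 82 bases, had a log2 fold change of -0.07 ± 0.12 in libraries labelled Upf2 cKO (edgeR adjusted p = 0.721). It rose in Hbs1l (0.67 ± 0.14, adjusted p = 0.0106) and Pelo cKO cells (0.59 ± 0.09, adjusted p = 0.00481; 0.0582 without the second Pelo library). Of the genes that overlap Snhg3, Rcc1 (0.73 ± 0.09, adjusted p = 0.00147) and Gm17300 (0.80 ± 0.15, adjusted p = 0.00714) rose in Hbs1l cKO cells, and in Pelo cKO cells they did not pass the test (0.14 ± 0.08, adjusted p = 0.210, and -0.06 ± 0.15, adjusted p = 0.770). St6galnac2, opposite Snhg16 over 497 bases, had a log2 fold change of 0.17 ± 0.24 in libraries labelled Upf2 cKO (adjusted p = 0.652) and was at most at 0.665 TPM in any library, and Mcmdc2, opposite Snhg6, at most at 0.392 TPM. Among 9899 genes with a mean of at least 5 CPM, those whose log2 CPM followed the mean standardised profile of the 10 hosts most closely over the 11 libraries were Crcp (Pearson's r = 0.993), Rabggtb (0.990), Pvt1 (0.987), Bloc1s2 (0.986) and Snrnp48 (0.985). The libraries fall into groups, so that r reflects little more than the contrast of the libraries labelled Upf2 cKO with the rest. Of these 5, Rabggtb holds 3 annotated snoRNA genes. Pvt1, a long noncoding RNA, went from 11.6 to 131 TPM on average. Snhg3 alone among the hosts ran against that profile (r = -0.336), and the other 9 had r between 0.957 and 0.995.

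Footprints offered only 2 genes of the list of other noncoding hosts. Snhg4 had 0 footprints in every library. Snhg11, a transcript of neurons, had 0 to 6 in MEF and embryo libraries. It had 55 to 145 in the 3 control cerebella and 63 to 71 in the 3 with Hbs1l cKO, which overlapped (log2 fold change -0.41 ± 0.34; edgeR adjusted p = 0.647, DESeq2 0.734).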

How the data were processed

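RNA was measured in 11 MEF libraries and ribosome footprints in 30 libraries of MEFs, embryos and cerebella. Per the methods, libraries were poly(A)-selected, stranded and paired-end, and the authors quantified them with kallisto 0.42.4 on Gencode M24 transcripts (mm10) with no strand option stated, so reads of overlapping genes on opposite strands cannot be told apart. What the authors deposited per transcript are unscaled estimated counts, with TPM values that correct them for length and depth, and per gene raw counts of footprints on coding sequences (Bowtie2 2.2.3, HISAT2 2.1.0, featureCounts).

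Estimated counts were summed per gene, rounded, filtered with edgeR's default and fitted by quasi-likelihood in edgeR 4.0.16 (R 4.3.3) after TMM scaling, each mutant with the 3 controls, with Benjamini-Hochberg adjustment over all genes and a threshold of 0.05. Tested on simulated counts of the Upf2 comparison (15484 genes), the fit called 96 of 100 genes changed 2-fold and 100 of 100 changed 4-fold, with 4 false calls. Whether the fit does as well at the spread between the real libraries was not tested. Totals ran from 22713643 to 86425762 estimated counts. Replicates are separate embryos and, over all genes, differ by more than counting error. DESeq2 1.42.0, other factors, no filter, a joint fit, TPM with pseudocounts of 0.1 and 1, and leaving out each library were alternatives. Transcript frames and coordinates came from Gencode M21.

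The host genes and all lists were chosen with earlier results of these data known. Named were all hosts, the targeted genes, per list up to 3 rises and 2 falls past the threshold (for hosts taken from the annotation, in the libraries labelled Upf2 cKO), and the 5 genes closest to the hosts' profile; Rian, Upf3b and Meg3 in the libraries labelled Upf2 cKO, the genes overlapping a host, and the hosts' transcripts singled out were named after their values were seen.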

Additional observations from a re-analysis of the deposited data

How the results depend on the processing

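The median log2 fold change of the 10 hosts kept its sign under all alternatives in each comparison. In libraries labelled Upf2 cKO it was 3.28, and 3.58 and 3.54 on log2(TPM + 0.1) and log2(TPM + 1); without 1 library it ran from 3.20 to 3.37 (Hbs1l -0.21 to -0.07, Pelo -0.61 to -0.26). Over transcripts with a mean of at least 1 TPM in all 11 libraries together, the median of the lncRNA-type minus that of the retained_intron-type transcripts was 1.21 in libraries labelled Upf2 cKO (1.11 to 1.44 without 1 library), -0.16 in Hbs1l (-0.27 to -0.10; -0.12 on log2(TPM + 0.1)) and 0.31 in Pelo cKO cells (0.14 to 0.36; 0.46 on log2(TPM + 0.1)). With at least 1 TPM over the other mutants' libraries, chosen after seeing the data, it was 1.17, -0.23 and 0.36; the cause was not tested. For single hosts the sign changed for Zfas1 in Hbs1l cKO cells without the first Hbs1l library (-0.12 to 0.069 without 1 library), and in Pelo cKO cells for Snhg12 (-0.23 to 0.13 without 1 library, positive without the first Pelo library; 0.12 on both TPM scales) and Snhg16 (-0.087 to 0.071 without 1 library, positive without the third control or the first Pelo library; 0.16 and 0.15 on the TPM scales). TPM moved the median of all genes in the Pelo comparison from -0.01 to 0.11 (log2(TPM + 0.1)).

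Replicate numbers did not pair the libraries: deviations of same-numbered libraries correlated at -0.01, 0.08 and -0.13 (Upf2), 0.06, 0.11 and -0.10 (Hbs1l) and -0.07 and -0.05 (Pelo). With the replicate block the hosts' medians were 3.27, -0.16 and -0.40, Snhg16 in Pelo cKO cells was at 0.041, and genes called in Pelo cKO cells went from 2283 to 1294 (higher) and from 2444 to 1627 (lower), with 0 of the 12 other noncoding hosts left. Without 1 library the genes called ran from 1370 to 2047 higher (2113 with all) and 395 to 1154 lower (1081) in libraries labelled Upf2 cKO, 966 to 1372 (1944) and 851 to 1291 (1598) in Hbs1l, and 532 to 2327 (2283) and 974 to 2475 (2444) in Pelo cKO cells. Of the 12 other noncoding hosts, 3 or 4 rose in libraries labelled Upf2 cKO under all of these, and 1 fell in Hbs1l cKO cells with DESeq2, in the joint fit or without the second Hbs1l library. Over all genes DESeq2 called 2156 higher and 1487 lower in libraries labelled Upf2 cKO. It called 2235 and 1800 in Hbs1l and 2423 and 2392 in Pelo cKO cells. Leaving out a Pelo library leaves 1, which is assumed to vary like the controls. At 134 estimated counts, the lowest of any host, counting error alone is 8.64% of the value.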
